A study of Mus musculus with 2 samples.

Results

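The genes of the endoplasmic reticulum (ER) stress response were examined in the postpartum brain of mice lacking TDAG51, the product of Phlda1. The 10 genes were Hspa5, Hsp90b1, Pdia4, Dnajb9, Herpud1, Xbp1, Atf4, Ddit3, Atf3 and Trib3, taken by gene name from 27861 gene names on the array, and every non-control probe of each gene was used. They had 14 probes, of which Hsp90b1 (named Tra1 on the array) and Trib3 had 2 each, Dnajb9 had 3 and the other genes 1. All samples were brains of C57BL/6J female dams aged 8 weeks on postpartum day 0 (P0). A TDAG51 knockout (KO, TDAG51-/-) sample was compared with a TDAG51 wild-type (WT, TDAG51+/+) sample on the first array. On the second array, a KO sample was compared with a sample that carried both the knockout and a TDAG51 transgene (KO Tg, TDAG51-/-Tg2). The transgene was driven by the brain-specific BAI1-AP4 promoter in 1 transgenic line, and the knockout was shared by the KO and KO Tg dams and was present in every tissue. KO was labelled with Cy3 on both arrays and the control with Cy5. Each comparison was made on 1 array without a dye swap, and the number of dams in a sample and whether both KO samples were the same RNA were not given in the sources used here. The spread between dams was therefore not measured, no test was possible, and every ratio below is a description of these samples.

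The ER is where secreted and membrane proteins are folded. When unfolded proteins accumulate there, the sensors IRE1 (Ern1), PERK (Eif2ak3) and ATF6 leave the chaperone BiP, and the unfolded protein response begins. ATF6 and the spliced form of XBP1 induce chaperones and the machinery that degrades misfolded proteins, while PERK slows translation and favours the transcription factor ATF4, which induces ATF3, CHOP (Ddit3) and TRIB3 when the stress persists. TDAG51 itself is known to be induced by ER stress, heat shock and oxidative stress, and the question addressed here was whether transcripts of the ER stress response differed in the brain without it.

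ATF6, XBP1 and ATF4 act through short DNA elements in the promoters of their targets, and the promoters that hold such an element are shown so that the genes can be read beside their ratios. RefSeq promoters on GRCm38.p6 were matched for all 10 genes, and the 250 bases before each start were searched on both strands for the ER stress response element ERSE (CCAAT, 9 bases of any kind and CCACG), ERSE-II (ATTGG, 1 base of any kind and CCACG), the unfolded protein response element (TGACGTGG), the cAMP response element (TGACGTCA) and a C/EBP-ATF element (TGATGCAA). Of the 10 genes, 4 had at least 1 match and 6 had none in this window. Among 32851 promoters of the same length, 0.113% held ERSE, 0.0304% held ERSE-II, 0.563% held the unfolded protein response element, 1.55% held the cAMP response element and 0.791% held the C/EBP-ATF element. Each stretch is written 5′ to 3′ on the strand of the gene, with the matched elements in capitals. Hspa5 (chr2:34771840-34772089, plus strand) had ERSE from 65 to 47 bases before its start. Hsp90b1 (chr10:86705445-86705694, minus strand) had ERSE from 212 to 194 bases before its start, and on the other strand from 107 to 89. Herpud1 (chr8:94386179-94386428, plus strand) had the C/EBP-ATF element on the other strand from 112 to 105 bases before its start, and ERSE-II from 52 to 42. Atf3 (chr1:191183334-191183583, minus strand) had the C/EBP-ATF element on the other strand from 110 to 103. No 2 of these matches overlapped.
Hspa5: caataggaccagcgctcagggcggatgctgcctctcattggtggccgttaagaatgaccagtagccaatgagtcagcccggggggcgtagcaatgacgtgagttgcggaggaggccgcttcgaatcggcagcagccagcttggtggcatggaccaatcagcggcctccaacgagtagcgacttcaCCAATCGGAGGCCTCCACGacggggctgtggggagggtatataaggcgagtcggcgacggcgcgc
Hsp90b1: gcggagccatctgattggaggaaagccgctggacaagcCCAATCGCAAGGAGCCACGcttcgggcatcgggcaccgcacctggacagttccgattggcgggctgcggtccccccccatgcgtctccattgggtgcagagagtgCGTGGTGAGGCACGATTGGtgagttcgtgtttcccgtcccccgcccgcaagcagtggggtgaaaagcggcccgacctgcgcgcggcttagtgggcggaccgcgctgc
Herpud1: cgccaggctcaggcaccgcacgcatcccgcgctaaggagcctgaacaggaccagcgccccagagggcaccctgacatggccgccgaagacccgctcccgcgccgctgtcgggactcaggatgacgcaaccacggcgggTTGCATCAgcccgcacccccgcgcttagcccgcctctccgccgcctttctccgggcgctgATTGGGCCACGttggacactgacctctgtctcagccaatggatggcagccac
Atf3: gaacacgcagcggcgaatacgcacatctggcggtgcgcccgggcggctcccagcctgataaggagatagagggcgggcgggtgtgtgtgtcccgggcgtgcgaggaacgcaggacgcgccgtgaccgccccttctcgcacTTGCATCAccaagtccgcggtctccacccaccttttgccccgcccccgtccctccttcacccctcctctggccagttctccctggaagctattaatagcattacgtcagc

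Before the ratios, the arrays were checked. Each of the 14 probes was marked well above background by the scanner in 1 or both channels of either array, and none was saturated. The median SD of the log2 ratio between replicate spots was 0.058 over 225 probes with at least 5 spots on the array with WT and 0.061 over 222 on the array with KO Tg, which is technical error alone. It was larger for the dim probes among these, at 0.089 over 99 probes and 0.093 over 94, with highest values of 0.18 and 0.25. Phlda1 had an intensity of 350.5 in KO and 7283 in WT, which was 17.3-fold lower in KO after normalization. On the second array its probe gave 44.1 in KO and 50.5 in KO Tg, neither well above background, so it did not check the transgene. In KO, the probe was well above background on the first array only. The cause of this difference between the KO samples was not tested. Markers of brain regions differed between the groups. Of 6 cerebellar markers, 5 were at least 2-fold higher in KO in both comparisons, and their summed intensity was 325224 and 325396 in KO, 84158 in WT and 85328 in KO Tg, where the KO sums are lower limits because Pcp2, Cbln1 and Zic1 were saturated in KO. Of 7 striatal markers, 5 were at least 2-fold lower in KO in both comparisons, with sums of 45476 and 40794 in KO, 109397 in WT and 108979 in KO Tg. All 3 blood markers were at least 2-fold lower in KO than in WT and 2 of 3 were higher than in KO Tg, with sums of 16268 and 120213 in KO, 87597 in WT and 61489 in KO Tg, so the KO samples lay on either side of both controls. Hbb-b1 was saturated in WT. Hba-a1 had an intensity of 2672 in KO on the first array and 43830 in KO on the second, so the KO samples differed in this marker. Of the 7 pituitary markers, 2 were at least 2-fold lower in KO than in KO Tg and 1 was higher in KO than in WT, with sums of 4572 and 4554 in KO, 5129 in WT and 10685 in KO Tg. None of these markers was near background in both channels. Their part in the results below was not tested, and in whole tissue fewer cells of a type and less RNA per cell cannot be told apart.

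Among the chaperones, Hspa5, Hsp90b1 and Dnajb9 had ratios near 0 in both comparisons after loess normalization. Hspa5 encodes BiP, the main ER chaperone and a sensor of unfolded protein, and its probe (chr2:34783421-34783480, mm7) had normalized intensities of 6658 in KO and 5951 in WT on the first array, and 6025 in KO and 6128 in KO Tg on the second. The log2 ratio was 0.16 over WT and -0.02 over KO Tg, and the KO and control values overlapped. Hsp90b1 encodes GRP94, the ER member of the HSP90 family. Its first probe had intensities of 21244 in KO and 18079 in WT, and of 20717 in KO and 22652 in KO Tg. Its second probe had 15799 in KO and 14784 in WT, and 15290 in KO and 13257 in KO Tg. The ratios of the first probe were 0.23 and -0.13, and those of the second 0.10 and 0.21, so the probes, whose starts lie 7559 bases apart, differed in sign against KO Tg. Dnajb9 encodes ERdj4, a J-domain partner of BiP. Its 3 probes had ratios between -0.08 and 0.07 over WT and between -0.16 and -0.07 over KO Tg. The first of them gave 12621 in KO and 12704 in WT, and 12122 in KO and 13161 in KO Tg. With the arrays centred on their median in place of loess, the ratio of Hspa5 was -0.06 over WT and that of the first Hsp90b1 probe -0.19. The signs of these probes over WT therefore turned with the correction of the dyes. Over KO Tg, Hspa5 then had -0.22 and the first Hsp90b1 probe -0.55. The first Dnajb9 probe had -0.36 over WT and -0.46 over KO Tg. The medians of all genes were then -0.074 over WT and -0.089 over KO Tg, so ratios near 0 depended on the correction.

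Pdia4, a protein disulfide isomerase of the ER lumen, was the member with the most even difference across both comparisons. Its probe (chr6:47755834-47755893, minus strand, mm7) had intensities of 413.0 in KO and 243.4 in WT, and of 438.8 in KO and 257.6 in KO Tg. Both KO values lay above both controls, which held for 33.4% of the detected probes. The log2 ratio was 0.76 over WT and 0.77 over KO Tg, or 1.70-fold each, under the 2-fold threshold of the study. This ratio was larger in size than that of 83.4% of the detected probes over WT and 84.2% over KO Tg. The offset of 50 added in background correction makes folds of dim probes smaller, and the ratio of the scanner software was 0.99 over WT and 0.95 over KO Tg. The probe is shown because the finding on Pdia4 rests on it alone.
Pdia4 probe: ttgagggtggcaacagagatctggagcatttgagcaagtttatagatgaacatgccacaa

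**Figure D1:**
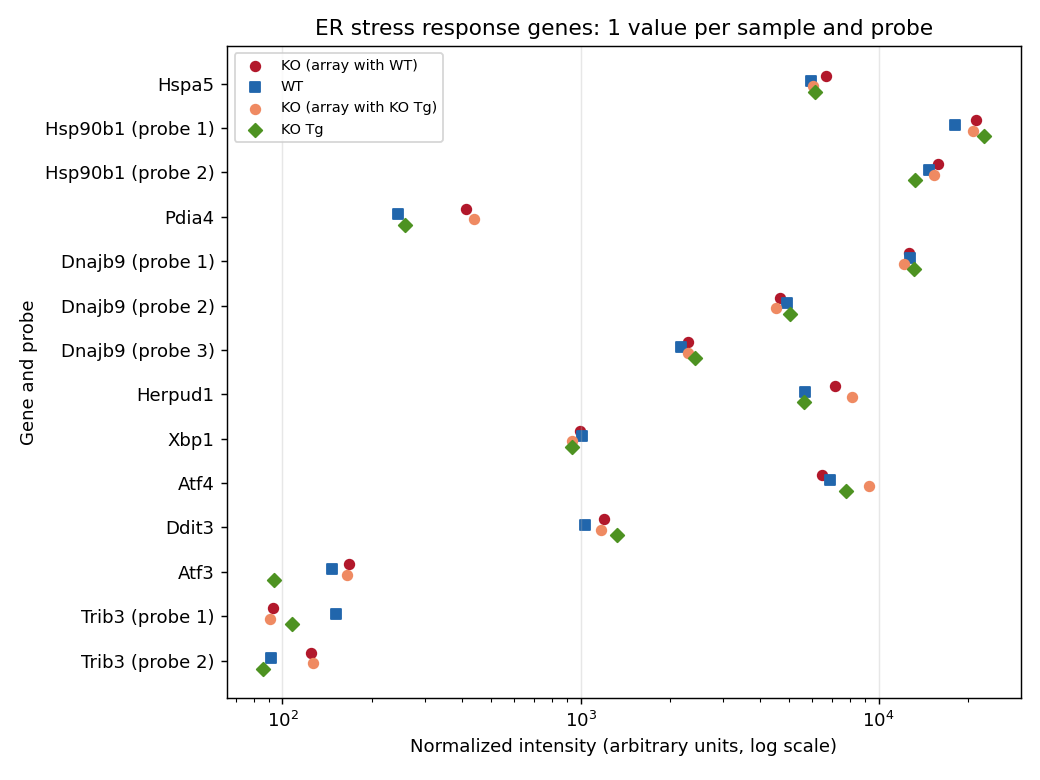
Normalized intensity (arbitrary units, log scale) of the 14 probes of the 10 genes, with 1 point for each of the KO sample on the first array, WT, the KO sample on the second array and KO Tg. The KO points of Pdia4 (413.0 and 438.8) lie to the right of WT (243.4) and KO Tg (257.6), and those of Xbp1 lie among the control points; there are no error bars because each point is 1 sample on 1 array.

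Herpud1 encodes HERP, an ER membrane protein that assists degradation of misfolded proteins. Its probe (chr8:92984261-92984320, mm7) had intensities of 7152 in KO and 5681 in WT, and of 8152 in KO and 5625 in KO Tg. Both KO values lay above both controls, which held for 33.4% of the detected probes. The log2 ratio was 0.33 over WT and 0.54 over KO Tg, or 1.26-fold and 1.45-fold. These were larger in size than the ratios of 49.5% of the detected probes over WT and 70.0% over KO Tg. Without normalization the ratio over WT was -0.04, where the median of all genes was -0.23. With median centring it was 0.11.

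The transcription factors of the response differed from each other in their ratios. Xbp1, whose mRNA is spliced by IRE1, had intensities of 996.3 in KO and 1010 in WT, and of 937.9 in KO and 932.7 in KO Tg. Its log2 ratios of -0.020 and 0.0080 were smaller than the technical SD, and the probe does not tell the spliced form from the unspliced one as used here. Atf4 encodes the factor favoured by PERK, mostly through translation of its mRNA. Its intensities were 6453 in KO and 6872 in WT, and 9317 in KO and 7744 in KO Tg, with log2 ratios of -0.09 and 0.27. The KO samples of the arrays differed by 0.53 for Atf4, the largest such difference among the 14 probes and larger than both of its ratios. Ddit3, which encodes CHOP, a factor linked to cell death under prolonged stress, had intensities of 1199 in KO and 1034 in WT, and of 1171 in KO and 1324 in KO Tg. Its ratio was 0.21 over WT and -0.18 over KO Tg, with KO between the controls.

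Atf3 encodes a stress-induced factor downstream of ATF4. Its probe (chr1:190724174-190724233, minus strand, mm7) had intensities of 167.7 in KO and 146.6 in WT, and of 164.8 in KO and 93.8 in KO Tg. The KO samples were alike, and the controls differed, with KO Tg lower than WT by a log2 difference of -0.65. The log2 ratio was 0.19 over WT and 0.81 over KO Tg, or 1.14-fold and 1.76-fold. With an offset of 0 the ratio over KO Tg was 1.37, and by the scanner software 1.61, so it passed 2-fold under these, while over WT it was 0.29 and 0.42.

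Trib3, a pseudokinase that restrains AKT and ATF4, was measured by 2 probes that went opposite ways. The probe for NM_144554 (chr2:152078476-152078535, minus strand, mm7) had intensities of 92.9 in KO and 150.7 in WT, and of 90.6 in KO and 107.5 in KO Tg. The KO values lay below both controls, which held for 28.5% of the detected probes, with log2 ratios of -0.70 and -0.25. The probe for NM_175093 (chr2:152079146-152079205, minus strand, mm7) had intensities of 124.7 in KO and 91.6 in WT, and of 127.0 in KO and 86.3 in KO Tg. The KO values lay above both controls, which held for 33.4% of the detected probes, with a log2 ratio of 0.45 over WT. The KO Tg channel was not well above background, so KO was at least 1.47-fold higher there. The starts of the probes lie 670 bases apart, and their ratios over WT differed by 1.14. Among genes with at least 2 detected probes, the range over WT was smaller in 89.6% of 5146. The ratios over WT were -1.24 and 0.87 with an offset of 0, and -1.87 and 1.37 by the scanner software, so the disagreement grew where dim probes were not damped. No direction can be given for Trib3 as a gene. The probe that was higher in KO is shown because it is the one that opposes the other.
Trib3 probe, NM_175093: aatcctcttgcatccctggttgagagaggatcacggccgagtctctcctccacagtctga

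**Figure D2:**
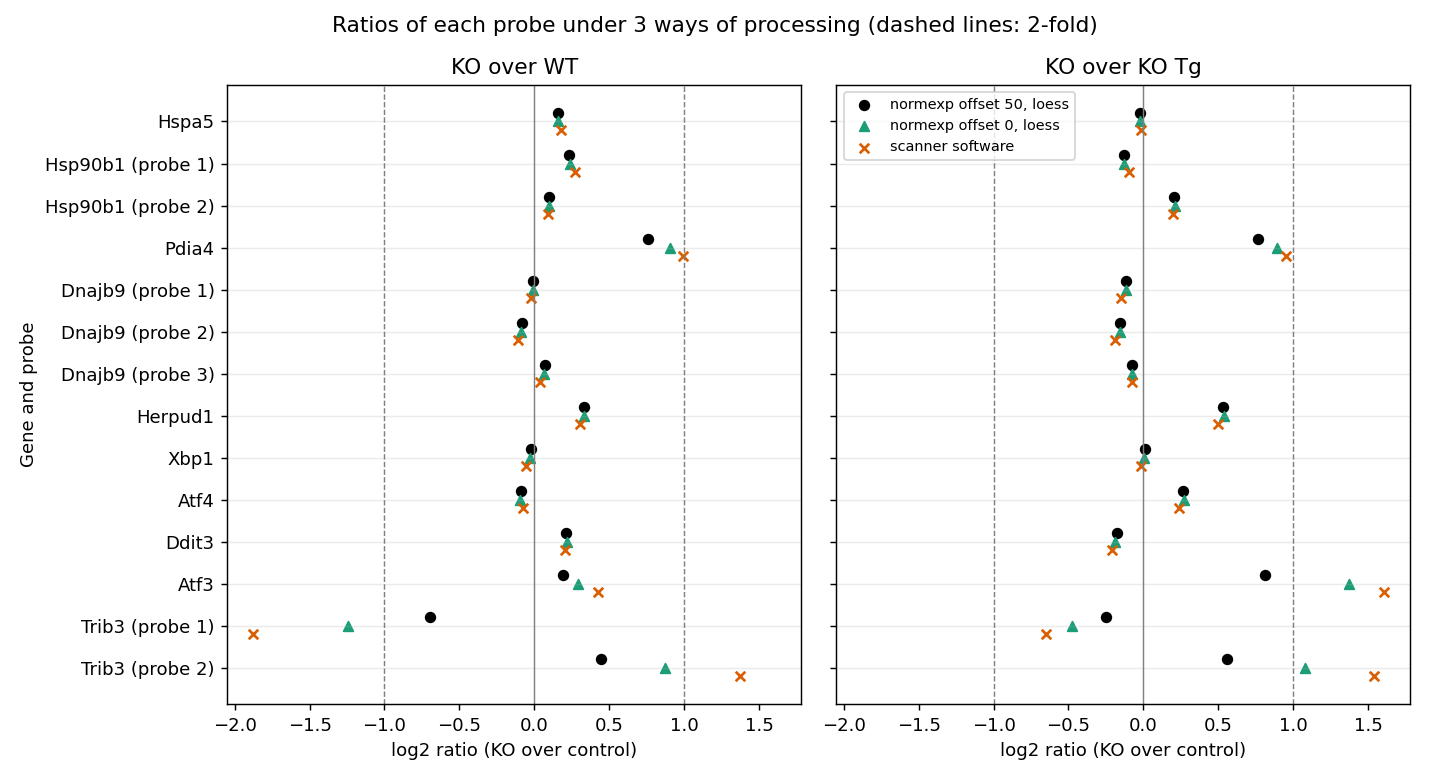
Log2 ratio of KO over WT (left) and of KO over KO Tg (right) for the 14 probes, by normexp with offset 50 and loess (circles), the same with offset 0 (triangles) and the scanner software (crosses), with dashed lines at 2-fold. No circle lies past 2-fold, and the Trib3 probes spread to -1.87 and 1.37 over WT by the scanner software.

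Over the 10 genes by their brightest probes, 0 were past 2-fold in either comparison, where 9.43% of all genes were past 2-fold over WT and 8.57% over KO Tg, in either direction. At 1.5-fold, 2 of the 10 genes were past the threshold in each comparison, beside 26.8% and 25.9% of all genes. These were Pdia4 and Trib3 over WT, and Pdia4 and Atf3 over KO Tg. The median log2 ratio of the 10 genes was 0.18 over WT and -0.0082 over KO Tg, beside medians of 0.0055 and 0.015 over all genes. With median centring, the medians of the 10 genes were -0.054 and -0.12 and those of all genes -0.074 and -0.089, so the sign over WT turned. Relative to all genes, the 10 genes were at 0.17 over WT and -0.023 over KO Tg with loess, and at 0.019 and -0.030 with median centring. Both KO values were above both control values for 5 of the 14 probes and below both for 3, where 33.4% and 28.5% of the detected probes did so. KO is compared with 2 controls here, and the comparisons therefore share the KO genotype.

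The rest of the pathway was described with 60 other genes of the unfolded protein response and the integrated stress response, with targets of ATF4 and CHOP. By their brightest probes, 2 of these were at least 2-fold higher in KO than in WT and 1 higher than in KO Tg. By the same probes, 0 were at least 2-fold lower in either comparison. Of all genes, 4.84% and 4.7% were higher and 4.59% and 3.87% lower. The median log2 ratio was 0.09 over WT and 0.13 over KO Tg, and -0.20 and -0.08 with median centring. In 4 of the 60 genes (Calr, Canx, Creb3 and Bbc3) the dimmer channel was saturated and no fold is given. Leaving these 4 out, a step chosen after seeing the data, changed the median over WT to -0.05 and the median over KO Tg to 0.11, so the sign over WT turned without the saturated probes. Vegfa, a growth factor for blood vessels, was 2.83-fold higher in KO than in WT and 1.90-fold higher than in KO Tg by its brightest probe, while its other probes had log2 ratios from -0.23 to 0.35 over WT and from -0.12 to 0.04 over KO Tg. Casp12, an ER-associated caspase, was 2.34-fold higher in KO than in WT and 1.48-fold higher than in KO Tg. Selenos, a selenoprotein of the degradation machinery, was 1.96-fold higher than in WT and 2.31-fold higher than in KO Tg. Beyond the brightest probes, some were past 2-fold lower than KO Tg. The other probes of Mbtps1 had log2 ratios from -2.42 to -0.10 over KO Tg and from 0.22 to 0.46 over WT. Those of Canx ranged from -1.38 to 0.33 over KO Tg.

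By role, the ratios of the pathway genes were spread around 0. Of the 3 main sensors, Ern1 had log2 ratios of -0.23 and 0.15, Eif2ak3 had 0.71 and 0.15, and Atf6 had -0.53 and -0.58 over WT and KO Tg. The other probe of Atf6 had -0.85 and -0.02. The 12 genes of ER-associated degradation had a median of 0.33 over WT and 0.24 over KO Tg. Of the 12, 9 and 7 were above 0, beside 11792 of 23377 and 11699 of 22878 of all genes. With median centring their medians were -0.12 and -0.07, beside -0.074 and -0.089 over all genes. When each gene was given by the median over its probes, the degradation genes had 0.064 over WT and 0.24 over KO Tg. The 16 chaperones and folding enzymes had medians of 0.04 and 0.10, which turned to -0.10 and -0.07 without saturated probes and to -0.18 and -0.14 with median centring. The 18 targets of ATF4 and CHOP had medians of -0.12 and 0.11, and of -0.46 and -0.08 with median centring. The 8 sensors and their processing proteases had -0.04 and 0.08, and -0.20 and -0.20 with median centring. The 6 kinases and phosphatase regulators of the integrated stress response had 0.05 and 0.23, and 0.03 and 0.19 with median centring, but -0.06 over WT by the median over the probes of a gene.

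**Figure D3:**
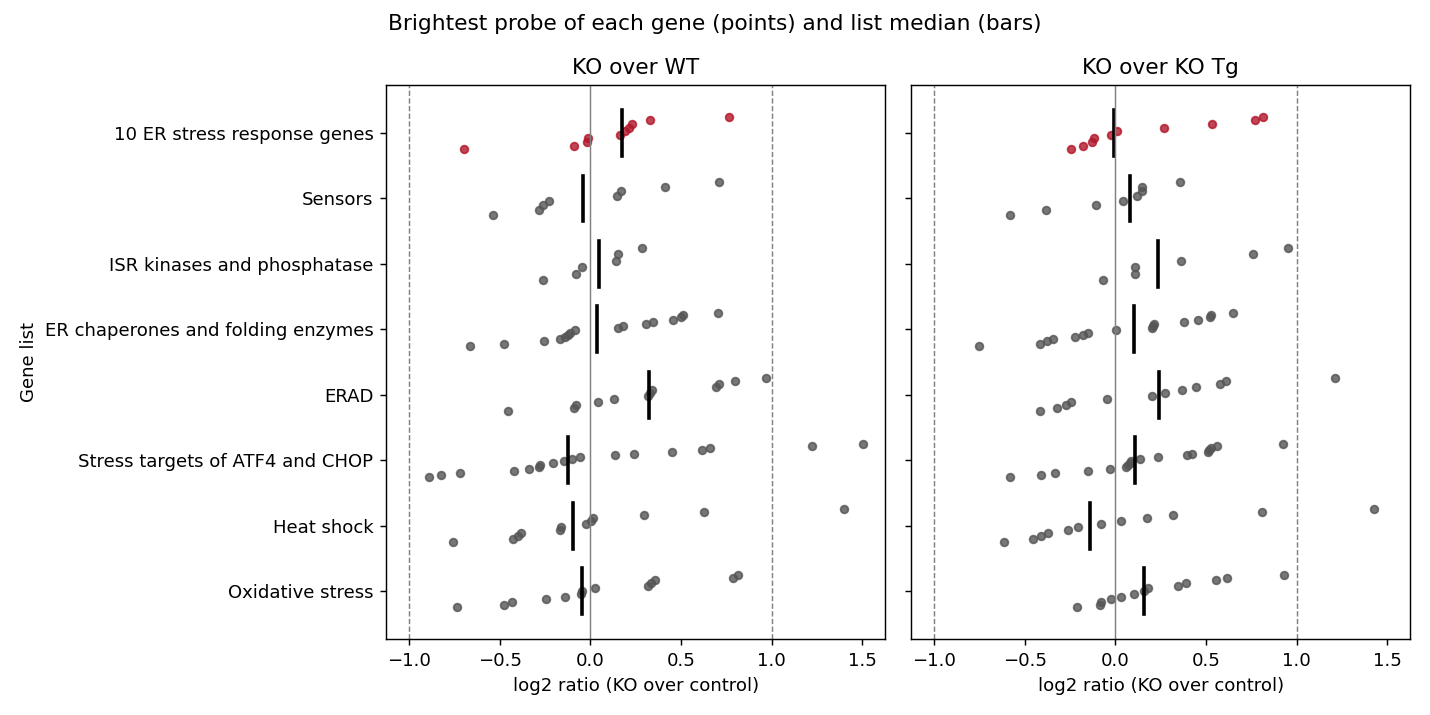
Log2 ratio of KO over WT (left) and of KO over KO Tg (right) of the brightest probe of each gene (points) in the 10 ER stress response genes (red) and in the other lists (grey), with the list median as a bar and dashed lines at 2-fold. The bars lie between -0.12 and 0.33 over WT and between -0.14 and 0.24 over KO Tg, and points past 2-fold are Vegfa and Casp12 over WT, Selenos over KO Tg and Bag3 in both.

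The other stresses known to induce TDAG51 were set beside these. Of 13 heat shock genes, 12 had a probe. By the brightest probe, 1 of these was at least 2-fold higher in KO in each comparison, beside 4.84% and 4.7% of all genes. The gene was Bag3, a co-chaperone of HSP70, at 2.64-fold over WT and 2.68-fold over KO Tg, while its other probe had log2 ratios of 0.07 and -0.35. The medians of the heat shock genes were -0.09 and -0.14, and -0.53 and -0.52 with median centring. In Hsph1 in both comparisons and Hsp90aa1 over WT, the dimmer channel was saturated. Without saturated probes the medians were -0.17 and -0.20. Of 13 genes of the oxidative stress response, 0 were past 2-fold by the brightest probe, beside 9.43% and 8.57% of all genes in either direction. Their medians were -0.05 over WT and 0.16 over KO Tg, and -0.23 and -0.20 with median centring. The dimmer channel of Sod1 was saturated in both comparisons, and without it the medians were -0.05 and 0.13. Among these genes, Nqo1 had log2 ratios of 0.82 over WT and 0.93 over KO Tg by its 1 probe. Nfe2l2 had 0.79 over WT and 0.61 over KO Tg. Its other probes had 0.37 to 0.94 over WT and 0.56 to 1.25 over KO Tg.

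Across the arrays, the 14 probes varied little between the KO samples by their median, but not at every probe. The median size of the log2 difference between the KO channels was 0.05 for the 14 probes and 0.10 over 29879 probes well above background in all channels. The median size of the difference between KO Tg and WT, which were never on the same array, was 0.13 for the 14 probes and 0.27 over the same 29879. The largest difference between KO Tg and WT among the 14 probes was that of Atf3.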

How the data were processed

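Brain RNA of P0 dams was measured on 2 Agilent whole genome mouse arrays with 2 dyes each. Per the file headers, the deposited scanner files were made with Feature Extraction, version 9.5.3.1, and give the mean intensity and background intensity of a spot. They also hold the scanner's log10 ratio (Cy5 over Cy3), deposited with the p-value of its error model. A separate table deposited by the authors gives log2 ratios, Cy3 over Cy5. Probe coordinates are on mm7, per the file headers. Background was corrected by normexp (offset 50) over all spots. Ratios were normalized by loess in limma 3.58.1 with R 4.3.3, with a weight of 0 for controls, and turned to KO over control. Controls and spots marked as outliers (375 and 300) were then dropped, and spots of a probe were averaged. Intensities per channel were scaled by Aquantile. Median intensities of Cy3 and Cy5 were 338.2 and 363.8 for the WT array and 336.1 and 385.0 for the KO Tg array. Probes that the scanner marked well above background in 1 or both channels were counted at 2-fold, the threshold of the study methods, without excluding saturated ones. The brightest probe represented a gene. Python 3.11.15, numpy 2.4.6, pandas 2.3.3 and matplotlib 3.10.9 were also used. Scripts were tested on simulated data. The alternatives were offset 0, the scanner's ratio with or without its p-value, centring by the median, no normalization, the deposited ratio, other filters, probes and thresholds. Leaving out saturated probes was an alternative chosen after seeing the data, and is given because it turned the sign of pathway medians.

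The members and lists were chosen with earlier results of these data known. Named genes were every probe of the members, TDAG51, Ern1, Eif2ak3, Atf6 and each listed gene past 2-fold in a comparison. Genes without a fold, Mbtps1, Nfe2l2, Nqo1 and Hba-a1 were named after their values were seen. The marker lists were of neurons, astrocytes, oligodendrocytes, choroid plexus, pituitary, blood, cerebellum and striatum. The medians over WT and KO Tg were -0.32 and -0.40 for neurons, -0.06 and 0.23 for astrocytes, -0.43 and 0.26 for oligodendrocytes and 0.70 and 0.49 for choroid plexus. The choroid plexus markers went opposite ways over WT, from -1.41 to 1.48, with 1 past 2-fold higher and 1 lower. Over KO Tg they ranged from -0.12 to 0.66.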

Additional observations from a re-analysis of the deposited data

How the results depend on the processing

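Among 140 values of single probes under the other normalizations, 129 stayed on the same side of 2-fold and 11 did not, and 16 changed sign, of probes whose log2 ratio was at most 0.33 in size. With an offset of 0, with the scanner's ratio and with the deposited log2 ratio alike, 1 member was past 2-fold lower than WT (Trib3 by its brightest probe) and 1 higher than KO Tg (Atf3), also when the scanner's p-value was required. The other Trib3 probe was then past 2-fold higher in KO over KO Tg (1.08, 1.54 and 1.40) and, by the scanner's and the deposited ratio, over WT (1.37 and 1.31). In these settings the pathway genes higher than KO Tg numbered 4, 3 and 3. At 1.5-fold, 1 member was higher and 1 lower than WT, and 2 were higher than KO Tg. With median centring, the members' medians were -0.054 and -0.12 and 2 pathway genes were lower in each comparison. Without normalization, they were -0.21 and -0.30, with 3 pathway genes lower in each comparison and 0 higher than KO Tg. The median of all genes was then -0.23 and -0.27, so relative to it the members were at 0.02 and -0.03. When a gene was given by the median over its probes, 1 pathway gene was higher than WT, since Vegfa was not, and the members' median over KO Tg was 0.10. The cause of these differences was not tested, beyond the damping of dim probes by the offset. The filters on dim probes and on saturated probes changed no count of the members or the pathway genes. No paired analysis was possible because each comparison had 1 array. The dyes were not swapped, so dye and genotype cannot be told apart, and the dim probes of Atf3 and Trib3 limit what their ratios show.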
